A study of Mus musculus with 18 samples.

Results

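The mitochondrial ribosomal protein genes described here are the 78 genes, of 54532 in the count tables, whose symbols begin with Mrpl or Mrps followed by a number, with 5 pseudogenes carrying the ending -ps left out. By their symbols 49 belong to the large subunit of the mitochondrial ribosome and 29 to the small subunit. All 78 are protein coding, lie in the nucleus on 17 chromosomes, and passed the filter on low counts in every comparison.

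The mitochondrial ribosome translates the few messages that the mitochondrial genome carries, all of them for membrane subunits of the respiratory chain and of ATP synthase. Its RNAs are made inside the organelle, but every one of its proteins is encoded in the nucleus, made in the cytosol and imported, so that the particle needs both genomes. Cone photoreceptors pack mitochondria into the inner segment next to the light-sensing outer segment and spend much ATP on ion transport.

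The libraries were RNA-seq of cones sorted from 18 retinas of wild-type mice, with 1 retina per library, made by a modified Smart-Seq2 method that copies RNA from small numbers of cells. Albino BALB/c mice were taken at postnatal day 21 (6 control and 6 Txnip libraries) and pigmented C57BL/6J mice at postnatal day 35 (3 control and 3 Txnip libraries). All eyes received AAV vectors at postnatal day 0. Control eyes received only the label, a histone H2B-GFP fusion under the cone promoter SynP136 that marked cones for sorting, and Txnip eyes received in addition Txnip, an alpha-arrestin that restrains glucose uptake, under the human red opsin promoter. Strain and age went together, so they cannot be told apart, and a strain difference below is a difference between BALB/c at day 21 and C57BL/6J at day 35. The labels do not say which retinas came from the same mouse, so p-values measure the spread between retinas.

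The totals ran from 647712 to 5172156 counted read pairs per library. The vector's target behaved as labelled: Txnip lay between 0 and 1.47 CPM (counts relative to each library's normalized total) in all control libraries and between 814 and 1952 CPM in all Txnip libraries. Marker genes of cones, such as cone arrestin and the cone opsins, took 3.70% to 9.80% of all counts. Markers of other retinal cells also differed between the strains in controls, where 8.03% of all genes were called higher in C57BL/6J and 9.52% lower. All 5 ganglion cell markers (0.0317% to 0.10% of counts in BALB/c and 0.00131% to 0.00747% in C57BL/6J) and 4 of 6 amacrine markers were called lower in C57BL/6J. Called higher were 5 of 9 rod markers (2 of the 9 lay below 0), 2 of 6 Müller glia markers and 4 of 12 cone markers, and of 6 bipolar markers none was called. In sorted bulk samples such as these, fewer cells of a type and less RNA per cell cannot be told apart.

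Promoter sequences are shown first for the 3 genes that differed between the control libraries of the strains (Mrpl42, Mrps11 and Mrpl16) and for 2 others that carry the motifs common in this family (Mrpl18 and Mrpl14). RefSeq promoters of GRCm38.p6, 250 bases before to 50 bases after the start of transcription, were at hand for 69 of the 78 genes. Capitals mark matches, on either strand, to CCGGAAG (a core bound by ETS factors such as GABPA), AAGATGGCG (bound by YY1) and TATAAA (the TATA box). They also mark GCGC and TGCGC parted by 1 base of any kind (the motif bound by NRF1, a regulator of nuclear genes for mitochondria). Each sequence is written 5′ to 3′ along its gene.
Mrpl42, chr10:95501900-95502199, minus strand: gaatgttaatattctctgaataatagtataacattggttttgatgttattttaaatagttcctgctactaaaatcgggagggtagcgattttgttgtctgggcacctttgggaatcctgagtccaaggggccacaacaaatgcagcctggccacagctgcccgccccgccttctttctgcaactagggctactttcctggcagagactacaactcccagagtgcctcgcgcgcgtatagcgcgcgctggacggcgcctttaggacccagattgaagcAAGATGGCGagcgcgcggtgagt
Mrps11, chr7:78782881-78783180, plus strand: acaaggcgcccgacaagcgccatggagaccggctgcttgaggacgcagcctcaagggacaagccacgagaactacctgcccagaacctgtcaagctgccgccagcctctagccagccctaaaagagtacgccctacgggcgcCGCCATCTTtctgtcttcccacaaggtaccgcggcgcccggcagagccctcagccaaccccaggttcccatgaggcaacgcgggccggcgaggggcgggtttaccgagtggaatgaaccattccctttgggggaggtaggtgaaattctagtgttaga
Mrpl16, chr19:11770165-11770464, plus strand: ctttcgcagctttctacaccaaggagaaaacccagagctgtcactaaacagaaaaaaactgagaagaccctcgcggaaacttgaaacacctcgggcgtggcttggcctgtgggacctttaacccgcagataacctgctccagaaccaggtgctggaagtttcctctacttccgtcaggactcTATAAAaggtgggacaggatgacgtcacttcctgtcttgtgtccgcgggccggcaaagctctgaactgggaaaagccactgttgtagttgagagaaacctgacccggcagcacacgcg
Mrpl18, chr17:12916042-12916341, minus strand: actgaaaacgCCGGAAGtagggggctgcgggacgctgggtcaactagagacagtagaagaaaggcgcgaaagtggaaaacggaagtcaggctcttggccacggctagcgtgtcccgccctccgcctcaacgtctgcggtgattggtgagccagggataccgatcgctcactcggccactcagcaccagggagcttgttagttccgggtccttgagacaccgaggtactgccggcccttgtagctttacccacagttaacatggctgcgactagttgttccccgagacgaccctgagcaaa
Mrpl14, chr17:45686099-45686398, plus strand: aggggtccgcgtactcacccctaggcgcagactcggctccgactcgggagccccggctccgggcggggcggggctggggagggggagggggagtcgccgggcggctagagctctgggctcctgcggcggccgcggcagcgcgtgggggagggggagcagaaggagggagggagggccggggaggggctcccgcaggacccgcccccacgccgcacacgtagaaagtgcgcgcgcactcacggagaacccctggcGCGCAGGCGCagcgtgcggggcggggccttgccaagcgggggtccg

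In Mrpl42 the YY1 letters began 28 bases after the start, and in Mrps11 their reverse complement began at -108. Mrpl18 held the ETS core at -240, and Mrpl14 held the NRF1 motif just after the start, from position 5, on the opposite strand. Mrpl16 held none of these 3 motifs but a TATAAA at -68. Over the family, 26 of 69 promoters (37.7%) held CCGGAAG, against 9.93% of the 27025 symbols in the RefSeq table. All symbols of that table were taken, without a limit to protein-coding genes. The NRF1 motif was in 13 (18.8%, against 5.19%) and the YY1 letters in 8 (11.6%, against 1.64%), and 41 of the 69 held at least 1 of these 3. CCAAT was in 27 (39.1%, against 41.1%), and TATAAA was in 5 (7.25%, against 15.7%). These are counts of letters, and binding was not measured. Of the 78 genes, 33 (42.3%) started within 1000 bases of an opposite-strand coding gene that ran the other way, against 10.8% of 21995 protein-coding genes. Mrps11 and Mrpl46 form such a pair with each other, and their promoter windows share 141 bases. Mrpl49 stands opposite Fau, which encodes a cytosolic ribosomal protein, and Mrpl43 stands opposite Twnk, the helicase of mitochondrial DNA.

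The genes were expressed above the middle of the cone transcriptome. In BALB/c control cones their median level was 15.6 CPM per kb of exon, against 5.06 for all 14751 genes tested, which placed it at percentile 78.2. Large subunit genes had a median of 17.4 and small subunit genes of 10.8 CPM per kb, and the 81 tested genes for proteins of the cytosolic ribosome had a median of 22.3. In C57BL/6J controls the median of the family was 18.7 CPM per kb, and that of the large subunit genes 20.3.

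Among large subunit genes in BALB/c controls, Mrpl49 was highest, at 73.9 ± 4.93 CPM per kb (SD, n = 6). Mrpl34 followed at 62.1 ± 8.10 and Mrpl14, whose protein lies at the contact with the small subunit, at 61.2 ± 7.25 CPM per kb, and these neighbours lay within their SDs of each other. Mrpl28 had 52.3 ± 9.55 and Mrpl2, a core protein near the peptidyl transferase centre, 51.7 ± 3.67 CPM per kb, which again could not be ordered. At the bottom stood Mrpl23, a protein at the exit of the peptide tunnel, with 1.31 ± 0.574 CPM per kb, below Mrpl1 at 2.25 ± 0.606 and Mrpl13 at 2.78 ± 0.721. These levels divide by all annotated exonic bases, 4883, 4295 and 7936 for these genes against 607 for Mrpl34. The order therefore depends on annotated length, as do the ratios of the subunits below. Undivided, Mrpl23 had 6.42, Mrpl1 9.64, Mrpl13 22.1 and Mrpl34 37.7 CPM. For Mrpl23, 11.6% of its 50-base transcript stretches also occur in other genes, led by its pseudogene. The share was 0.0707% for Mrpl1 and 1.90% for Mrpl13, and 22.3% for Mrpl27, which had 33.6 CPM per kb. The part of shared stretches in these levels was not tested.

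Small subunit genes spanned a narrower range. Mrps21 was highest at 37.5 ± 6.37 CPM per kb (SD, n = 6), followed by Mrps34 at 29.9 ± 2.82, Mrps24 at 25.7 ± 2.54, Mrps14 at 24.0 ± 2.48 and Mrps6 at 23.7 ± 2.00, the last 3 within their SDs. Mrps34 shares 63.4% of its exonic bases with Mapk8ip3, so its level is uncertain. The lowest were Mrps10 at 4.73 ± 0.928, Mrps31 at 4.93 ± 0.775 and Mrps30 at 5.07 ± 1.14 CPM per kb, also not separable. Annotated length enters here too: Mrps10 has 8079 exonic bases and Mrps21 739, and undivided they had 38.2 and 27.7 CPM.

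The order of the genes was nearly the same in both strains, with a Spearman correlation over the 78 genes of 0.96 between the control groups and 0.95 between the Txnip groups. Those points share gene length and sequence, so they are a description. The summed level of the large subunit genes was 2.64 ± 0.11 times that of the small subunit genes in BALB/c controls (SD, n = 6), 2.59 ± 0.08 in BALB/c Txnip (n = 6), 2.51 ± 0.09 in C57BL/6J controls (n = 3) and 2.55 ± 0.08 in C57BL/6J Txnip (n = 3). Per gene, the mean level of the large subunit was 1.56, 1.53, 1.48 and 1.51 times that of the small subunit in the same order. The values of single libraries ran from 2.43 to 2.75, and the range of each group overlapped that of every other group.

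**Figure D1:**
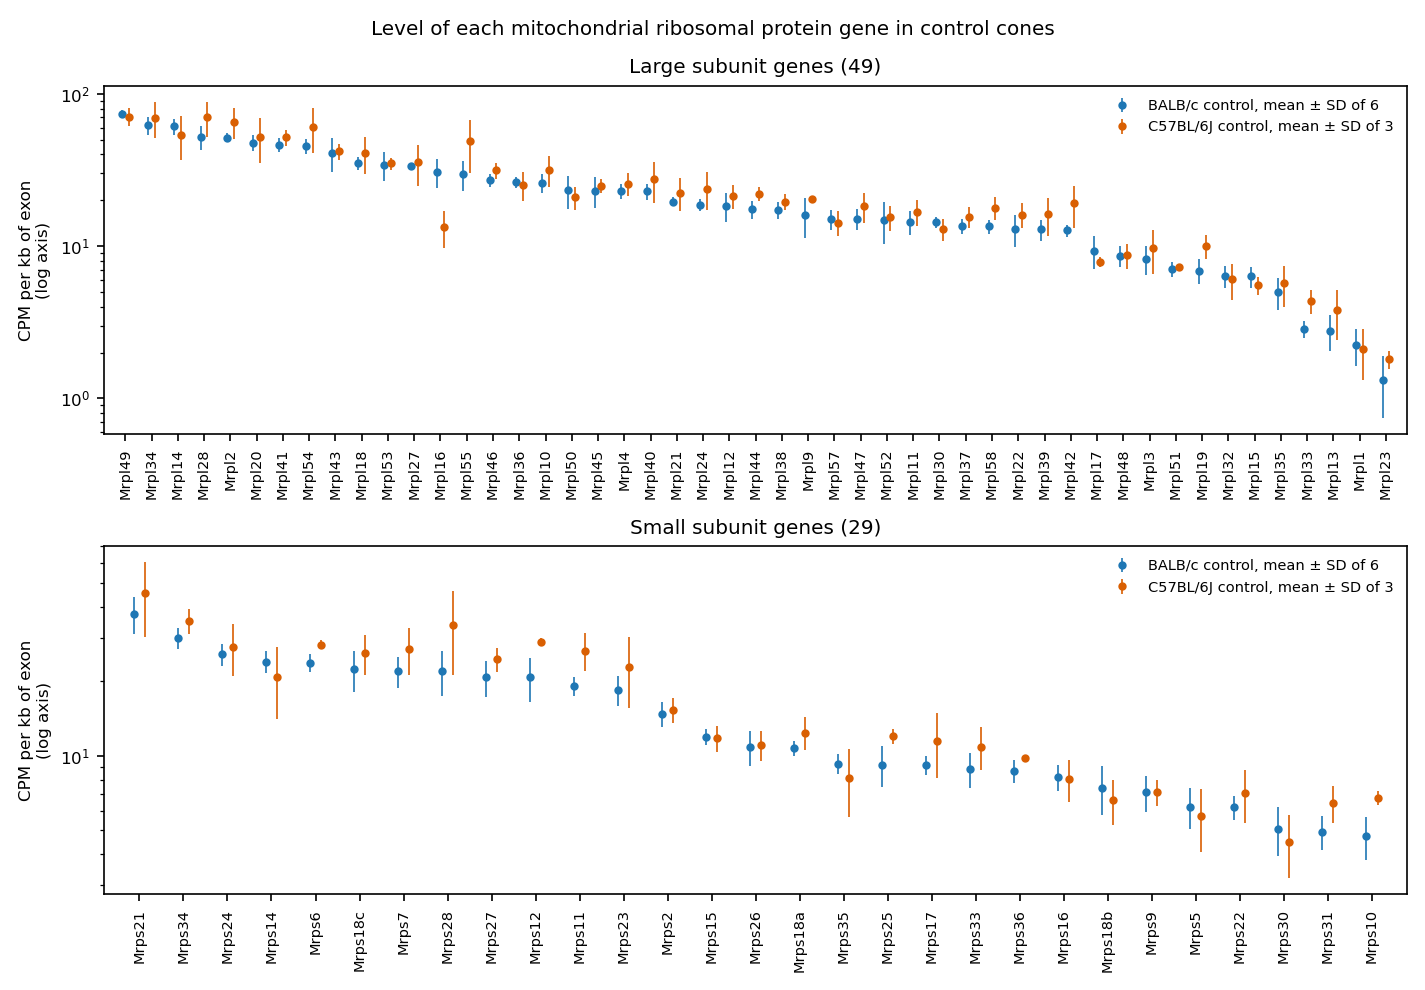
Level of each gene in control cones, in CPM per kb of exon on a log axis, with large subunit genes above and small subunit genes below; points are means and bars SDs of 6 BALB/c or 3 C57BL/6J libraries. Levels run from 1.31 for Mrpl23 to 73.9 for Mrpl49 in BALB/c, and the strains follow nearly the same order, with Mrpl16 the clearest departure.

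In C57BL/6J, the genes moved together from library to library. Their mean log2 CPM was 5.30, 5.12 and 5.57 in control libraries 1 to 3 and 5.72, 4.97 and 5.29 in Txnip libraries 1 to 3, while the 12 BALB/c libraries lay between 5.08 and 5.23. In Txnip library 1, 75 of the 78 genes lay above the mean of their own group (median deviation 0.44 in log2 CPM), and in Txnip library 2 only 2 did (median deviation -0.34). In control library 3, 72 of 78 lay above their group mean (0.26), and in control library 2, 11 of 78 (-0.23). In BALB/c the count above the group mean ran from 23 to 53 of 78. The median gene of all tested deviated by no more than 0.04 in any C57BL/6J library, and genes of the cytosolic ribosome deviated by 0.21 and -0.20 in Txnip libraries 1 and 2. Large and small subunit means tracked each other over the 6 C57BL/6J libraries (Pearson r = 0.99, given as a description of libraries that share depth and scaling).

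The share of counts on a ribosomal RNA locus of chromosome 17 was 3.27%, 27.5% and 6.44% in C57BL/6J control libraries 1 to 3 and 5.70%, 26.9% and 20.2% in Txnip libraries 1 to 3. The share of cone markers in the same order was 6.82%, 5.01%, 9.80%, 9.24%, 3.70% and 5.98%. The libraries with the highest mean level of mitochondrial ribosomal protein genes, control 3 and Txnip 1, thus had the highest cone marker shares and low ribosomal RNA shares, and the lowest, control 2 and Txnip 2, had the lowest cone marker shares and the highest ribosomal RNA shares. Both shares were taken of all counts, so a higher ribosomal RNA share by itself lowers the cone marker share. Control 1, with the lowest ribosomal RNA share, had a mean level of 5.30, between those of controls 2 and 3. The part of either share in the levels was not tested.

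**Figure D2:**
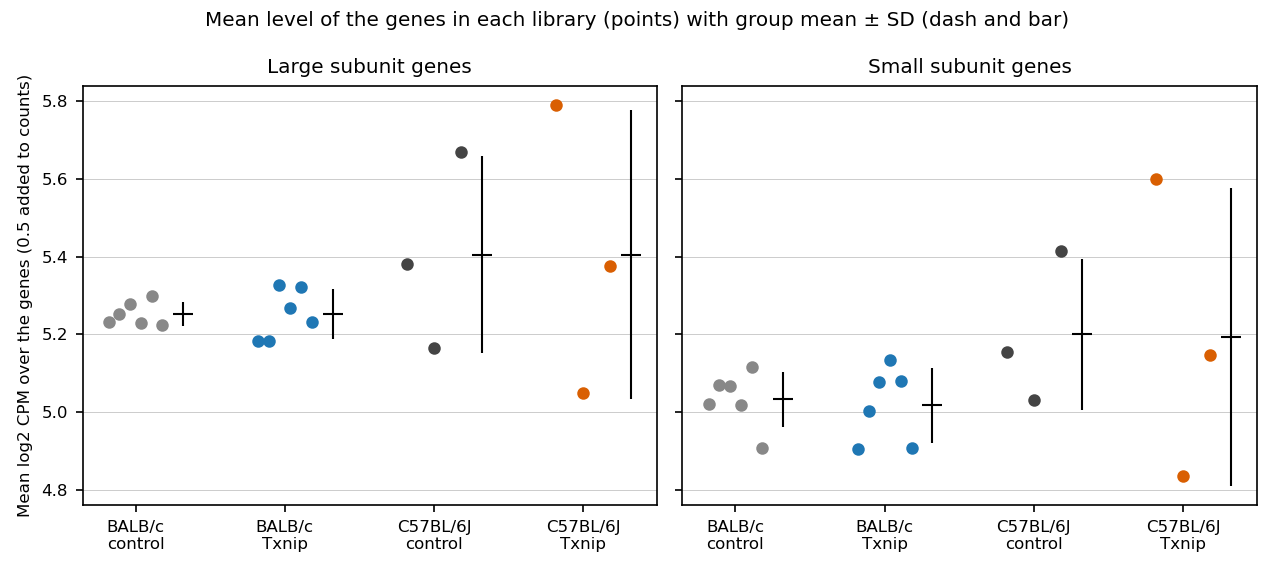
Mean log2 CPM over the large subunit genes (left) and small subunit genes (right) in each library, with the group mean and SD beside the points. BALB/c libraries lie close together, while the C57BL/6J libraries spread from 5.05 to 5.79 for the large and from 4.84 to 5.60 for the small subunit.

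**Figure D3:**
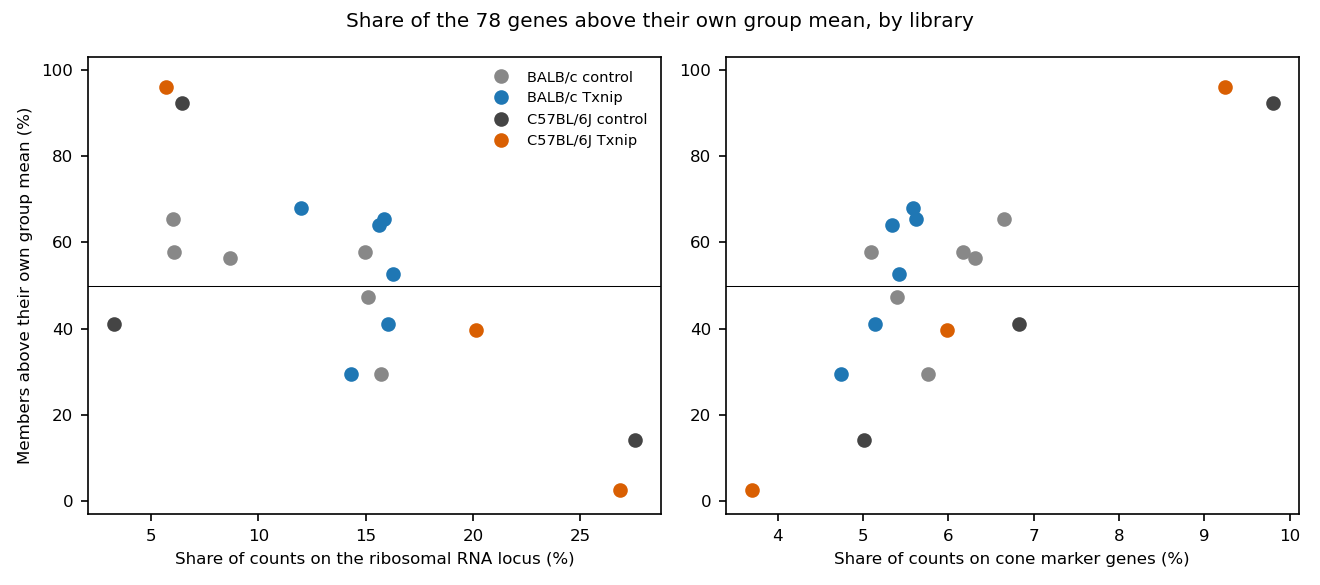
Share of the 78 genes above their own group's mean in each library, plotted against the share of counts on the ribosomal RNA locus (left) and on cone markers (right), in percent. C57BL/6J Txnip library 1 stands at 96.2% and Txnip library 2 at 2.56%, and the BALB/c libraries lie between 29.5% and 67.9%.

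The first comparison asked whether Txnip in cones changes these genes in each strain. In BALB/c none of the 78 passed an edgeR adjusted p of 0.05, beside 0.0166% of the 12017 genes tested, which were Txnip itself and an antisense gene overlapping it. The median log2 fold change of the family was -0.01 (large subunit -0.01, small subunit -0.01), against 0.00 for all genes, with 38 genes above 0 and 40 below. Individual values ran from -0.49 to 0.41, with a median standard error of 0.14. At an unadjusted p under 0.05 there were 2 genes higher and 1 lower, against 4.65% of all genes higher and 6.77% lower, or 11.4% in either direction.

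The lower one was Mrpl48, a protein of the central protuberance, the crown of the large subunit. It had 52.2 to 83.8 CPM in BALB/c controls (median 70.8, n = 6), and 63.7, 60.8, 48.7, 43.9, 35.1 and 39.9 CPM in Txnip libraries 1 to 6. Txnip libraries 3 to 6 lay below every control, and libraries 1 and 2 within the control range. The log2 fold change was -0.49 ± 0.14 (SE) with an edgeR adjusted p of 0.179. Without Txnip library 1 it was -0.59 with an adjusted p of 0.0381. Mrpl48 (chr7:100545751-100608301, minus strand) shares 708 exonic bases, 8.69% of its length, with Rab6a on the opposite strand, and the counting did not use strand. Rab6a, a GTPase of Golgi traffic, had 109 to 168 CPM in BALB/c controls, 129 and 123 CPM in Txnip libraries 1 and 2, and 18.4 to 33.8 CPM in Txnip libraries 3 to 6. The 4 libraries with low Mrpl48 were thus the 4 with low Rab6a, and the part of shared reads in the Mrpl48 value was not tested.

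The 2 genes with higher values were Mrpl9 and Mrpl10. Mrpl9, a protein at the foot of the L1 stalk, had 23.1 to 61.7 CPM in controls (median 44.4) and 41.3 to 71.3 in Txnip libraries (median 58.5, n = 6 each). Its log2 difference was 0.41 ± 0.18 (SE; edgeR adjusted p = 0.385). Over 9 alternative ways of processing, that difference ran from 0.17 to 0.42. Mrpl10, which anchors the stalk that recruits translation factors, had 38.2 to 52.4 CPM in controls (median 41.4) and 45.7 to 57.9 in Txnip libraries (median 52.9), a difference of 0.25 ± 0.12 (adjusted p = 0.407). Mrpl21 had 35.0 to 42.2 CPM in controls and 27.7 to 37.2 in Txnip libraries, a log2 difference of -0.24 ± 0.12 (adjusted p = 0.450). The other genes named by their p for Txnip in BALB/c were Mrpl12, the stalk protein that contacts translation factors, at 0.27 ± 0.16 (adjusted p = 0.535), Mrps11 at 0.21 ± 0.11 (adjusted p = 0.477), Mrpl18 at -0.23 ± 0.12 (adjusted p = 0.487) and Mrpl3 at -0.31 (adjusted p = 0.559). In each of these genes the groups overlapped, and for no gene of the family did the BALB/c groups separate completely, against 0.316% of all genes separated upward and 0.383% downward.

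In C57BL/6J again none of the 78 passed by edgeR, beside 0.0154% of 12974 genes, the same gene pair as in BALB/c. None had an unadjusted p under 0.05, against 0.748% of all genes. The median log2 fold change was 0.01, equal to the 0.01 over all genes, with 40 genes above 0 and 38 below. With 3 libraries per group the median standard error was 0.28, so a difference had to be larger than in BALB/c to be detectable.

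In 3 genes every C57BL/6J Txnip library lay above every control, against 2.22% of all genes, and in none did every Txnip library lie below, against 2.18%. Mrpl53, a stalk-side protein, had 26.1, 26.3 and 30.5 CPM in controls and 38.8, 30.6 and 38.9 with Txnip, a log2 difference of 0.38. It shares 88.0% of its exonic bases with the overlapping Gm42688, so its counts are uncertain. Mrpl17, a protein at the tunnel exit, had 55.4, 60.7 and 63.8 CPM in controls and 89.1, 67.3 and 66.6 with Txnip, a difference of 0.30. Mrps15 had 17.5, 22.4 and 20.1 CPM in controls and 30.4, 24.0 and 22.6 with Txnip, a difference of 0.36. Such separation fixes the p of a two-sided exact permutation test at 0.1, the smallest that 3 against 3 libraries allow, so that p adds no support. For each, the edgeR adjusted p was 1.00. The highest value of each of Mrpl17 and Mrps15 came from Txnip library 1, in which nearly the whole family stood high. The lowest fold change was that of Mrpl3, a gene mutated in a human mitochondrial disease, at -0.45 in C57BL/6J and -0.31 in BALB/c. Mrpl3 had 55.4, 50.04 and 88.0 CPM in C57BL/6J controls and 47.9, 39.3 and 54.2 with Txnip, and the groups overlapped. Mrps31 had a log2 difference of 0.30 in C57BL/6J, Mrpl37 of -0.29, Mrps24 of -0.23 and Mrpl40 of -0.25, each with overlapping groups and an edgeR adjusted p of 1.00. Over 11 alternative ways of processing, the value of Mrps24 ran from -0.40 to -0.08. That of Mrpl40 turned to 0.017 without control library 3.

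**Figure D4:**
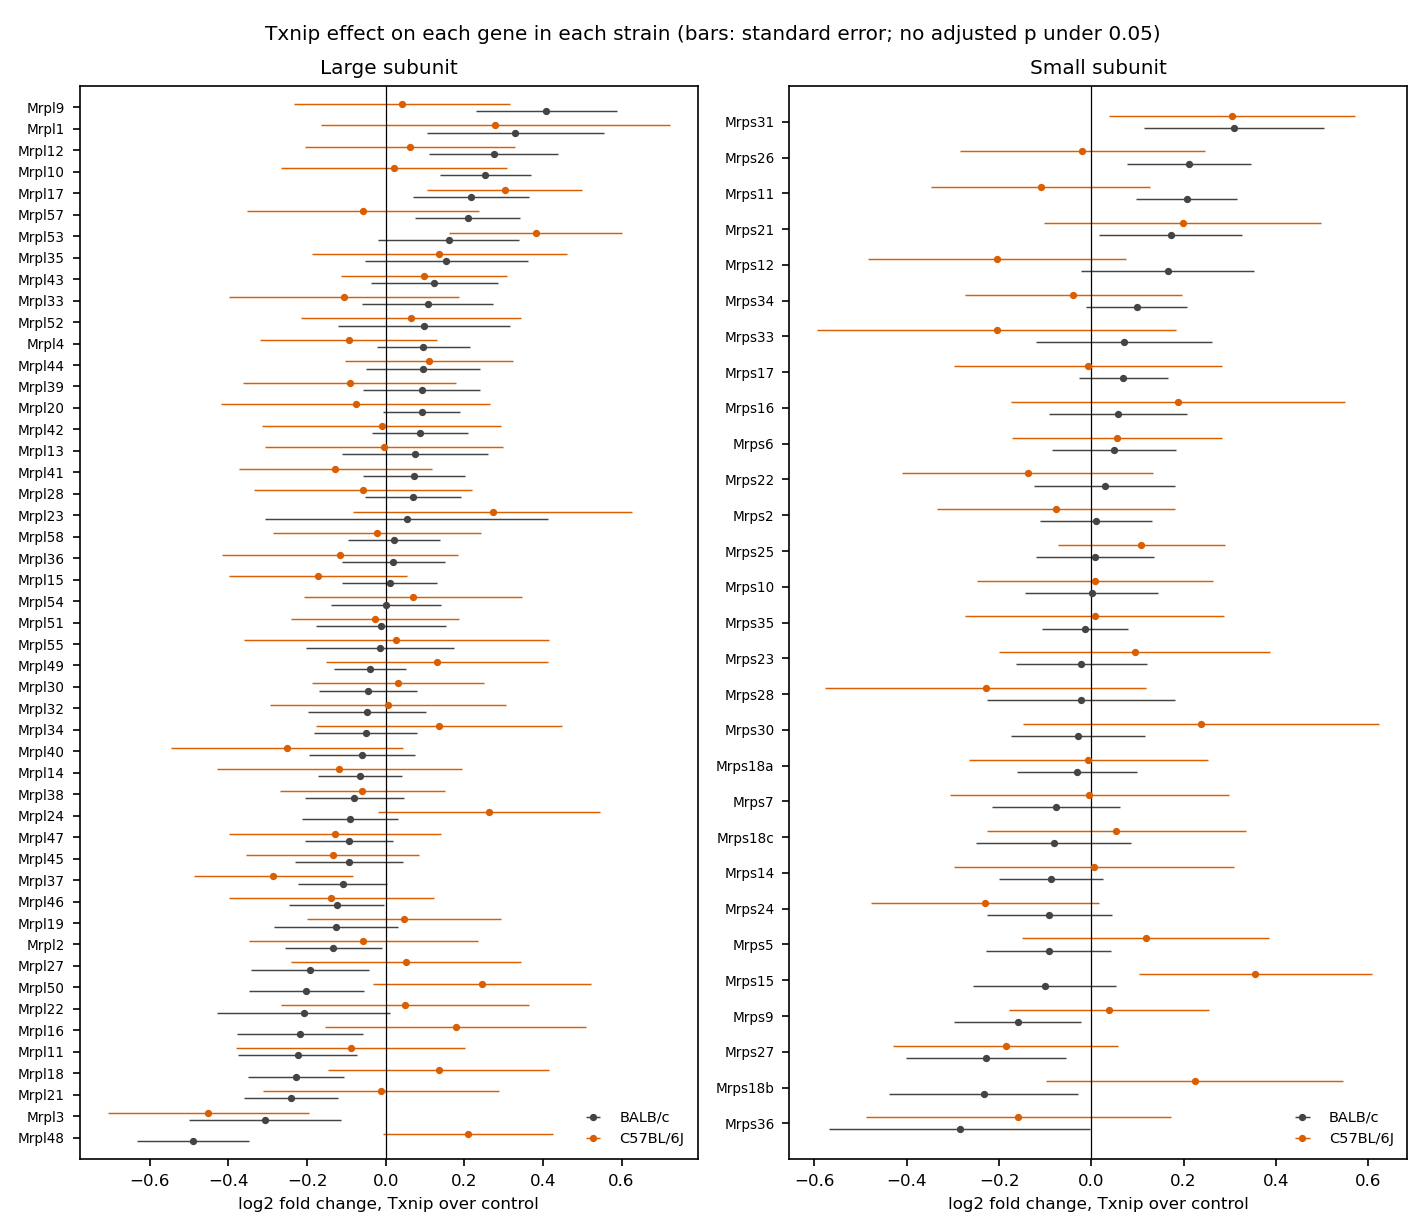
Log2 fold change of Txnip over control for each gene in BALB/c and in C57BL/6J, with standard errors as bars, large subunit left and small subunit right. Values scatter about 0 in both strains, from -0.49 to 0.41 in BALB/c and from -0.45 to 0.38 in C57BL/6J, and none passes an adjusted p of 0.05.

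The difference between the strains in the effect of Txnip was tested in 1 edgeR fit of all 18 libraries. No gene of the family and 0% of the 14751 genes tested passed, while at an unadjusted p under 0.05 there were 3.35% of all genes with a higher and 1.44% with a lower effect in C57BL/6J, 4.79% together. The median difference over the family was 0.01, against 0.02 for all genes. Of the family 1 gene did so, Mrpl48, with a difference of 0.71 ± 0.26 (SE; edgeR adjusted p = 0.906), and its partner Rab6a had a difference of 1.31 ± 0.58 in the same fit.

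The second comparison set the strains side by side. In control libraries the family lay slightly higher in C57BL/6J: 60 of 78 genes had a log2 fold change above 0, with a median of 0.20 (large subunit 0.20, small subunit 0.22), against 7360 of 14751 and a median of 0.00 for all genes. Genes of the cytosolic ribosome had a median of -0.07. Only 3 of the 78 (3.85%) passed an edgeR adjusted p of 0.05, against 17.5% of all genes, 2 of them higher (8.03% of all genes) and 1 lower (9.52%). At an unadjusted p under 0.05 there were 11 higher and 1 lower, 12 of 78, against 31.1% of all genes. The shift rests in part on C57BL/6J control library 3: without it the median was 0.074 with 47 of 78 above 0, against an all-gene median of -0.022. Only Mrpl16 was called there, against 10.4% of all genes. Without control library 2 the median was 0.27. Without control library 2 and Txnip library 2, those with the highest ribosomal RNA share, 8 of the 78 (10.3%) were called, 7 of them higher, against 19.9% of all genes called and 8.92% higher. In the same comparison 11 of 12 cone markers lay above 0, with a median of 0.29. So did 6 of 6 bipolar markers (median 1.28), 6 of 6 Müller glia markers (median 1.32) and 7 of 9 rod markers, while amacrine markers had 5 of 6 below 0 (median -1.51) and ganglion markers 5 of 5 (median -4.19). Their part in the shift was not tested.

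The gene that was lower was Mrpl16 (chr19:11770415-11774944, plus strand; ENSMUSG00000024683), whose protein sits in the large subunit where the aminoacyl-tRNA binds. Its BALB/c controls had 25.9 to 43.8 CPM (median 35.0, n = 6) and its C57BL/6J controls 13.2, 12.1 and 19.8 CPM. Every C57BL/6J library lay below every BALB/c library, and the fall was by 1.18 on the log2 scale (SE 0.24; edgeR adjusted p = 0.00119). The exact permutation p for the group means, two-sided, was 0.0119, the smallest that 3 against 6 libraries allow, and it follows from that separation. The call held when each of the 9 control libraries was left out in turn, with values from -1.44 to -1.08. Mrpl16 shares no exonic base with another gene, and none of its 50-base stretches occurs in another gene's transcript.

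Of the 2 higher genes, Mrps11 (chr7:78783119-78792989, plus strand; ENSMUSG00000030611) encodes a protein of the small subunit platform. It had 37.6 to 46.9 CPM in BALB/c controls (median 40.2, n = 6) and 51.4, 52.5 and 69.3 CPM in C57BL/6J controls. The groups did not overlap, and the log2 difference was 0.48 ± 0.16 (SE; edgeR adjusted p = 0.0363). The call was lost without BALB/c control library 1, 2, 4 or 6 (adjusted p from 0.0637 to 0.0754) and without C57BL/6J control library 3 (0.33, adjusted p = 0.267). Mrps11 overlaps its head-to-head partner Mrpl46 by 173 exonic bases, and Mrpl46 had a difference of 0.22 (edgeR adjusted p = 0.430).

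Mrpl42 (chr10:95480805-95501940, minus strand; ENSMUSG00000062981), a large subunit protein without a bacterial counterpart, had 41.0 to 50.5 CPM in BALB/c controls (median 47.9, n = 6) and 73.6, 46.8 and 90.2 CPM in C57BL/6J controls. C57BL/6J library 2 lay inside the BALB/c range. The difference was 0.59 ± 0.20 (SE; edgeR adjusted p = 0.0448). It passed in 1 of the 9 settings that left out a control library, that without C57BL/6J library 2. Without any BALB/c library the adjusted p ran from 0.0562 to 0.0910, without C57BL/6J library 1 it was 0.125 and without library 3 it was 0.326 with a difference of 0.37.

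In all, 9 genes had every C57BL/6J control above every BALB/c control, against 8.98% of all genes: Mrpl2, Mrpl33, Mrpl58, Mrps6, Mrps10, Mrps11, Mrps12, Mrps25 and Mrps36. Mrpl58 is a hydrolase that frees stalled ribosomes, Mrps12 lines the decoding site, and Mrps36 is now known as a subunit of a matrix dehydrogenase. Mrpl16 was the only gene separated downward, against 9.66% of all genes. A higher mean also occurred without a call: Mrpl55 had a log2 difference of 0.73 in controls and 0.79 in Txnip libraries, but its C57BL/6J control level of 48.7 ± 18.3 CPM per kb (SD, n = 3) met 29.6 ± 6.70 in BALB/c (n = 6).

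Between the Txnip groups, whose libraries enter the control contrast only through the shared filter, scaling and spread of the fit, 60 of 78 genes again lay above 0, with a median log2 difference of 0.21 (large subunit 0.17, small subunit 0.25), against 7965 of 14751 genes and a median of 0.05 for all genes. Genes of the cytosolic ribosome had a median of -0.11. Of the family 6 (7.69%) passed, against 17.6% of all genes, 5 of them higher (8.24% of all genes) and 1 lower (9.38%). At an unadjusted p under 0.05 there were 16 higher and 2 lower, against 30.2% of all genes. In 6 genes (Mrpl19, Mrpl24, Mrpl44, Mrpl48, Mrps15 and Mrps25) every C57BL/6J library lay above every BALB/c library, against 8.2% of all genes, and in none did every one lie below, against 9.72%. Here the result turned on C57BL/6J Txnip library 1: without it the median was -0.026, 36 of 78 genes lay above 0 and 2 were called, both lower, against 7.04% of all genes lower. Without Txnip library 2 the median was 0.37 and 10 genes (12.8%) were called, all higher, against 8.44% of all genes higher and an all-gene median of 0. Without the C57BL/6J libraries with the highest ribosomal RNA share 15 (19.2%) were called, all higher, against 9.8% of all genes. Without control library 1 and Txnip library 2, 11 (14.1%) were called, all higher, against 8.79%. The libraries left out there had the highest share of rod genes in their groups, 2.21% and 1.53%, though Txnip library 1 had 1.42%. Their Müller glia shares (0.0933% and 0.0673%) and bipolar shares (0.037% and 0.0436%) were the highest of the C57BL/6J libraries. In the same comparison 11 of 12 cone markers (median 0.30), 9 of 9 rod markers (1.37), 6 of 6 bipolar markers (1.56) and 5 of 6 Müller glia markers (2.02) lay above 0, and 5 of 6 amacrine markers (-1.70) and 5 of 5 ganglion markers (-3.82) below 0. The part of these cells in the shift was not tested. Over both comparisons 53 genes were above 0 in each and 11 below 0 in each, and 1 gene, Mrpl16, was called in both.

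Mrpl16 had 21.9 to 36.1 CPM in BALB/c Txnip libraries (median 27.8, n = 6) and 22.6, 13.8 and 14.9 CPM in C57BL/6J Txnip libraries, the first of them within the BALB/c range. It fell by 0.79 (SE 0.23; edgeR adjusted p = 0.0225), and the call was lost without C57BL/6J Txnip library 2 (-0.67, adjusted p = 0.0759) or 3 (-0.69, adjusted p = 0.107).

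None of the 5 genes that were higher was called between the control groups, and none differed between strains in the Txnip effect by the test above. Mrpl48 had 35.1 to 63.7 CPM in BALB/c (median 46.3, n = 6) and 101, 70.2 and 76.6 CPM in C57BL/6J, a log2 difference of 0.73 ± 0.18 (SE; edgeR adjusted p = 0.0077). In control libraries its difference was 0.01. Mrpl24, a protein that lines the tunnel exit, had 31.7 to 49.1 CPM in BALB/c (median 40.0) and 88.6, 51.7 and 54.7 in C57BL/6J, a difference of 0.70 ± 0.19 (adjusted p = 0.0124). Mrpl19, a protein at the contact between the subunits, had 26.1 to 45.7 CPM in BALB/c (median 32.1) and 74.8, 48.4 and 47.1 in C57BL/6J, a difference of 0.71 ± 0.20 (adjusted p = 0.0169). Without C57BL/6J Txnip library 1 these 3 calls were lost, with differences of 0.54, 0.41 and 0.45 and adjusted p of 0.0767, 0.172 and 0.182 for Mrpl48, Mrpl24 and Mrpl19. In each of the 3 the groups did not overlap, and library 1 held the highest value.

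Mrpl18, a protein of the central protuberance, had 33.8 to 49.7 CPM in BALB/c Txnip libraries (median 39.7, n = 6) and 85.9, 48.8 and 54.2 in C57BL/6J, and library 2 lay inside the BALB/c range. The log2 difference was 0.60 ± 0.19 (SE; edgeR adjusted p = 0.0316), lost without C57BL/6J library 1 (0.31, adjusted p = 0.327) and without BALB/c Txnip library 1, 2, 5 or 6 (adjusted p from 0.0565 to 0.0708). Mrps25, a mitochondrion-specific protein of the small subunit, had 52.6 to 72.2 CPM in BALB/c (median 58.5) and 76.8 to 89.9 in C57BL/6J, without overlap, a difference of 0.48 ± 0.15 (adjusted p = 0.0306). This call was lost without C57BL/6J Txnip library 1 or 3 or BALB/c Txnip library 1, 2, 4 or 5, with adjusted p from 0.0615 to 0.116.

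All 5 of these genes share exonic bases with another gene, as do 32 of the 78, and among the 46 that share none no gene was called higher, where 8.24% of all genes were. The partners on the opposite strand had their own differences. Nr2c2, which shares 69.8% of the Mrps25 exons, was higher by 0.53 (edgeR adjusted p = 0.00913), Rrnad1, which shares 26.3% of Mrpl24, by 0.42 (adjusted p = 0.0651), Gcfc2, which shares 1962 exonic bases with Mrpl19, by 0.80 (adjusted p = 0.189), Rab6a, which shares 8.69% of Mrpl48, by 0.56 (adjusted p = 0.375), and Tcp1, which shares 10.1% of Mrpl18, by 0.30 (adjusted p = 0.218). The median difference was 0.27 over the 32 genes that share bases and 0.13 over the 46 that do not. In the controls, 1 of the 32 and 1 of the 46 were called higher, where 8.03% of all genes were, with medians of 0.23 and 0.18. The part of shared reads was not tested.

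**Figure D5:**
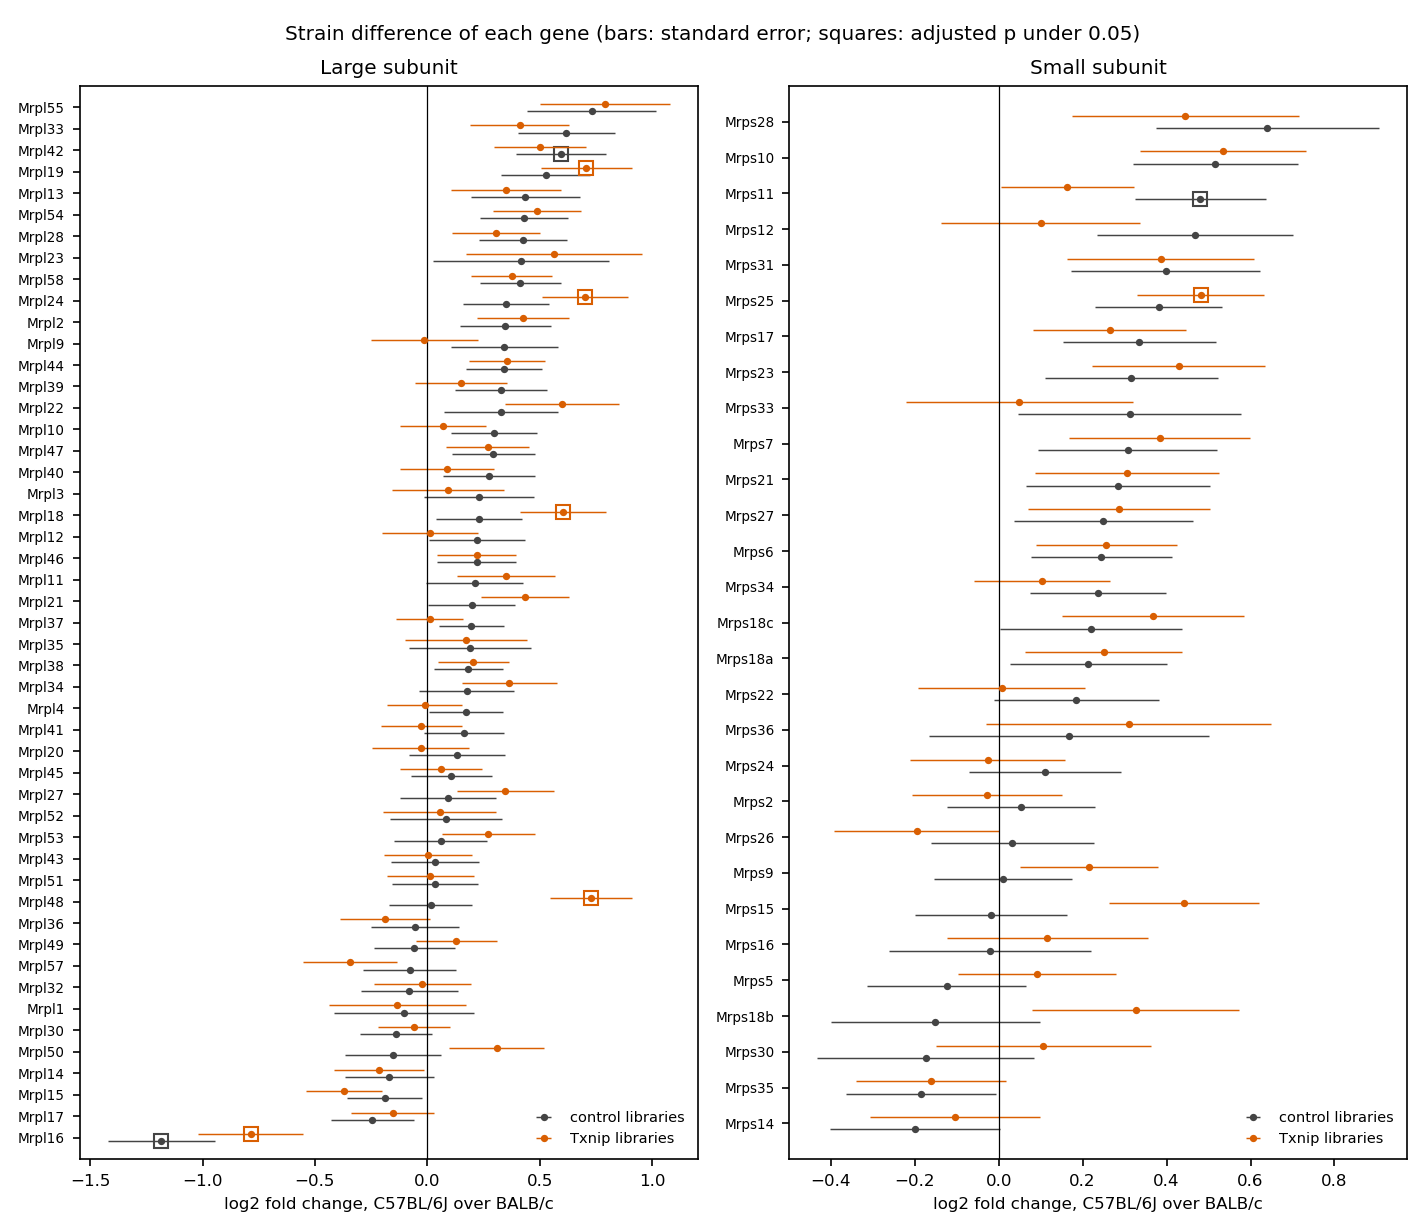
Log2 fold change of C57BL/6J over BALB/c for each gene in control and in Txnip libraries, with standard errors as bars and squares at an edgeR adjusted p under 0.05, large subunit left and small subunit right. Most points lie right of 0, with medians of 0.20 and 0.21, and Mrpl16 stands apart at -1.18 in control and -0.79 in Txnip libraries.

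The genes were also counted by place in the particle, to be read against the 60 of 78 genes of the whole family that lay above 0 in each strain comparison. The 5 genes of the stalk that recruits factors (Mrpl10, Mrpl11, Mrpl12, Mrpl53 and Mrpl54) were all above 0 between the control groups, with a median log2 difference of 0.22, and none was called. Of 7 genes for the tunnel exit and its membrane contact, 6 were above 0 (median 0.33) in controls, and Mrpl24 alone was called in the Txnip libraries. The 5 genes of the central protuberance were above 0 in both strain comparisons (medians 0.22 and 0.22), with none called in the controls and Mrpl18 and Mrpl48 called higher in the Txnip libraries, where 8.24% of all genes were. For Txnip the same 5 were all below 0 in BALB/c (median -0.12), where 49.9% of all genes were, and in C57BL/6J 2 were above and 3 below 0, from -0.25 to 0.21, with none called in either strain. The decoding and messenger-entry genes Mrps5, Mrps7, Mrps12 and Mrps24 had values from -0.12 to 0.47 in controls, and the S18 paralogues Mrps18a, Mrps18b and Mrps18c had 0.21, -0.15 and 0.22. The 46 genes with a bacterial counterpart and the 32 without one had medians of 0.21 and 0.19 between the control groups. Genes with at least 1 of the ETS, NRF1 and YY1 motifs had a median of 0.19 (33 of 41 above 0), and those with none had 0.23 (20 of 28 above 0). By motif the control medians were 0.19 for ETS (22 of 26 above 0), 0.20 for YY1 (7 of 8) and 0.03 for NRF1 (8 of 13). In the Txnip libraries the medians were 0.15 with any of the 3 motifs and 0.27 with none, and 0.28 for ETS, 0.17 for YY1 and -0.015 for NRF1 (6 of 13 above 0). These counts have no test.

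For other nuclear genes of mitochondrial translation, the shares called lay on both sides of that of all genes between control groups and below it between Txnip groups. Neither Txnip comparison called any of the 5 mitoribosomal proteins with other names, the translation factors, the mitochondrial tRNA ligases, the assembly factors or the genes for mitochondrial transcription and RNA stability. Between control groups, where 17.5% of all genes were called and 8.03% higher, 3 of 15 translation factors (20%) were higher, among them Tufm, the factor that brings tRNA to the ribosome, at 0.55 (edgeR adjusted p = 0.0195). Of 20 tRNA ligases 3 were higher and 1 lower (20% called): Aars2, the alanine enzyme, was at 0.96 (adjusted p = 0.000317) and Fars2, the phenylalanine enzyme, at -0.68 (adjusted p = 0.0119). Of 25 assembly factors 3 (12%) were called, 2 higher and Mrm1, a methylase of the 16S RNA, lower at -2.04 (adjusted p = 0.00776). Of the 5 ribosomal proteins with other names only Dap3, a GTP-binding small subunit protein, was higher (0.67, adjusted p = 0.0380), and of 16 genes for transcription and RNA stability 1 (6.25%) was higher. In the Txnip libraries, where 17.6% of all genes were called, the counts were 0 of the 5 proteins with other names, 1 of 15 translation factors, 2 of 20 ligases, 1 of 25 assembly factors and 2 of 16 genes for transcription and RNA stability. Aars2 was again higher (0.63, adjusted p = 0.0129) and Fars2 again lower (-0.70, adjusted p = 0.00928), while Mrm1 was at -0.61 (adjusted p = 0.420). Polrmt, the mitochondrial RNA polymerase, was at -0.22 (adjusted p = 0.393) in controls and lower, at -0.59 (adjusted p = 0.0158), in Txnip libraries.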

How the data were processed

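Per the file headers, the authors counted read pairs with featureCounts 1.6.2 on Ensembl 94 exons of GRCm38. Pairs over several genes counted for each, no strand option was set, and the deposited values are raw counts per gene. The submitters' processing notes also name STAR and DESeq2. Tables of the authors' own DESeq2 comparisons were not used.

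Counts were tested with edgeR 4.0.16 in R 4.3.3 (filterByExpr, TMM, glmQLFit and glmQLFTest, Benjamini-Hochberg over all genes tested, threshold 0.05), within each strain for Txnip and in 1 fit of 18 libraries for strain and interaction. DESeq2 1.42.0 was an alternative. The scripts were tested on simulated counts. Log2 CPM used 0.5 added to counts, CPM used TMM-scaled totals, and levels between genes were divided by exon length. Symbols came from GENCODE M21. Libraries were grouped by their labels, and no library pair of a group differed by less than sampling noise (lowest chi-square per degree of freedom 1.91). The genes' share of counts ran from 0.241% to 0.463% per library. The genes, lists and tests were chosen with earlier results of these data known. Named genes were those called, the 4 with the smallest p in each direction for Txnip, the 5 highest and 3 lowest in each subunit, and genes fixed by role; Mrpl55, partner genes and genes named for separate groups were chosen after their values were seen.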

Additional observations from a re-analysis of the deposited data

Results flagged for a closer look

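Mrpl23 had 18.4 CPM in BALB/c Txnip library 6, while the other 5 BALB/c Txnip libraries lay between 4.46 and 8.77 CPM. That library was flagged because its gap to the nearest other value was 0.692 of the range of its group, above the limit used for 6 libraries. It was the 1 value flagged among 74 groups of values looked at, where chance gives about 1 in 20, or 3.7 here. Library 6 was the shallowest of all, with 647712 counted pairs.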

How the results depend on the processing

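With the replicate number as a block, 0 genes of the family were called for Txnip in BALB/c, in C57BL/6J or between them, and the medians were -0.01, -0.02 and -0.01, so the block changed no call. Libraries with the same number did not deviate together (correlations from -0.07 to 0.04 in BALB/c and from -0.14 to 0.11 in C57BL/6J). This gave no sign of pairing by number, but with so few libraries per group it cannot exclude pairing. Mrpl48 in BALB/c was the 1 gene called lower for Txnip with every gene counted at least once in the test (adjusted p = 0.0102), and leaving out 1 library gave 0 to 1 calls there. Between control groups, 8 genes (7 higher, against 8.92% of all genes higher) were called without the C57BL/6J libraries with the highest ribosomal RNA share (control 2 and Txnip 2, a choice made after seeing the data). At an adjusted p under 0.1 there were 8 (24.4% of all genes called). Leaving out 1 library gave 1 to 4 calls, where 10.4% to 16.9% of all genes were called, and medians from 0.074 to 0.27. Between Txnip groups the count was 15 (all higher, against 9.8% of all genes) without those libraries. It was 11 (all higher, against 8.79%) without C57BL/6J control 1 and Txnip 2, which had the highest share of rod genes in their groups. At an adjusted p under 0.1 it was 11 (23.4% of all genes called). Leaving out 1 library gave 2 to 10 calls, where 11.9% to 18.7% of all genes were called, and medians from -0.026 to 0.37. For the interaction those medians ran from -0.22 to 0.14. DESeq2 called 2 (2.56%) and 6 (7.69%) genes between control and Txnip groups, and 0 for Txnip in either strain. In those strain comparisons it called 6.09% and 6.32% of the 43750 genes with at least 1 count. Mrpl42 lost its call by DESeq2 (adjusted p = 0.0676) and without C57BL/6J control 1 and Txnip 2 (0.0783). Mrps11 (0.161) and Mrps25 (0.114) lost theirs in the test of every gene counted at least once. Mrpl16 in Txnip libraries lost its call without C57BL/6J control 1 and Txnip 2 (0.0709) or without those with the highest ribosomal RNA share (0.0649). Otherwise the strain medians stayed from 0.16 to 0.29 in controls and from 0.12 to 0.38 in Txnip libraries over 10 alternatives each. The Txnip difference of Mrpl40 in C57BL/6J ran from -0.48 without Txnip library 1 to 0.017 without control library 3. With Mrps18a and Mrps30 counted with the large subunit and Mrps36 left out, as in the structure, its summed level was 2.84, 2.77, 2.69 and 2.73 times that of the small subunit (BALB/c control and Txnip, then C57BL/6J control and Txnip), and by medians over genes 1.58, 1.58, 1.58 and 1.54 times. At least 10 counts in every library kept 72 of the 78 genes. Where no value above shows it, the cause was not tested.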

Other observations

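The ribosomal RNAs that the particle itself contains come from the mitochondrial genome. The 16S RNA (mt-Rnr2) was at 4576 to 13237 CPM in BALB/c controls and 11499 to 13631 CPM in BALB/c Txnip libraries. In C57BL/6J it was at 2070, 12785 and 2674 CPM in controls and at 2151, 10588 and 10402 CPM in Txnip libraries. The C57BL/6J libraries with low 16S RNA were the 3 with a low share of the chromosome 17 ribosomal RNA locus. The 12S RNA (mt-Rnr1) was between 42.3 and 134 CPM in all libraries.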
